A study of Mus musculus with 20 samples.

Results

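Nol11, Cap1, Rpgrip1, Sdc4 and Plac8 were studied as genes whose array signal stood at separate levels in different embryos of the same genotype, in mouse embryonic fibroblasts (MEFs, primary connective tissue cells grown out of embryos). They are 5 of the 12393 genes named on the array, and their 12 probe sets are all those annotated to these symbols alone, of 22626. The genes were picked for this pattern on these same arrays, so the gaps between embryos are given as a description, with no test. Cells came from embryos of 13.5 days post coitum. The 20 cultures, each on 1 array, were split evenly by genotype: 3 wild type embryos gave 3, 3 and 4 cultures, and each of 5 E2F4 null embryos gave 2. The sources used here do not give the deleted part of E2f4 or the strain, litter or sex of the embryos. Each embryo was taken as the replicate, so p-values measure the spread between embryos, except in the alternative fits over cultures given near the end. E2F4 is a transcription factor that acts mainly as a repressor of cell cycle genes, in complexes with the pocket proteins.

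The 5 genes have unrelated functions. Nol11 is a nucleolar protein of the small subunit processome, the assembly that carries out the first steps of ribosomal RNA processing. Cap1 (cyclase associated actin cytoskeleton regulatory protein 1) recycles actin monomers together with cofilin. Rpgrip1 anchors the retinitis pigmentosa GTPase regulator at the connecting cilium of photoreceptors, and is known for its role in the retina rather than in fibroblasts. Sdc4 (syndecan 4) is a heparan sulfate proteoglycan of the cell surface that binds fibronectin and signals at focal adhesions. Plac8 is a small cysteine-rich protein first described in placenta and also made by myeloid and epithelial cells.

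The arrays were alike in scale, with a trimmed mean signal of 500.2 on each and medians from 135 to 146. Of the 20 arrays, 17 correlated best with another culture of their own embryo. The labelled cell type was checked on its markers: all 14 fibroblast markers were measured, their summed signal ran from 113713 to 115786 in wild type embryos and from 101239 to 115552 in null embryos, and Col1a2 lay between 14694 and 17407. Among the 8 epithelial markers, Epcam was between 2.2 and 12.8 and Cdh1 between 2.8 and 15.4, whereas Krt19 was between 170 and 451 and Krt18 between 60.7 and 213. All 15 macrophage markers were measured, with Itgam at 6.3 to 21.0, Lyz2 at 555 to 2509 and summed signals of 2298 to 3872 in wild type and 2009 to 6178 in null embryos. The mean E2f4 signal was 209, 212 and 222 in wild type embryos 1 to 3, and 157, 167, 156, 155 and 197 in null embryos 1 to 5. The groups did not overlap, as in 2.61% of all probe sets in this direction, and the difference (-0.35 on the log2 scale, SE 0.11) had a limma adjusted p of 0.522. With the deleted part unknown, this probe set may lie outside it and then checks nothing.

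To describe a split, the 8 embryo means of log2(signal + 16) were put in order and the largest step between neighbours was taken as the gap. A probe set was called 2-level when its gap was at least 1 and larger than the range of embryo means on either side of it. In all, 94 of 22626 probe sets met this (0.415%), and 56 (0.248%) had at least 2 embryos and both genotypes on each side. With 1 probe set per gene, that of the highest mean, the share was 0.42%, or 52 of 12393 genes. Over all their probe sets, 74 genes had a 2-level one. Gene lists, cell type markers and chromosome neighbours were scored on the probe set of the highest mean. The median gap of all probe sets was 0.20, the 90th percentile 0.43 and the 99th 0.83. The rule for the 5 genes used these same values, so nothing is read from their 7 of 12 probe sets that were 2-level. Just inside the threshold lay Jph2 (gap 1.0052) and Tnfrsf1b (1.0098), and just outside it Clec16a (0.9982) and Ptx3 (0.997).

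**Figure D1:**
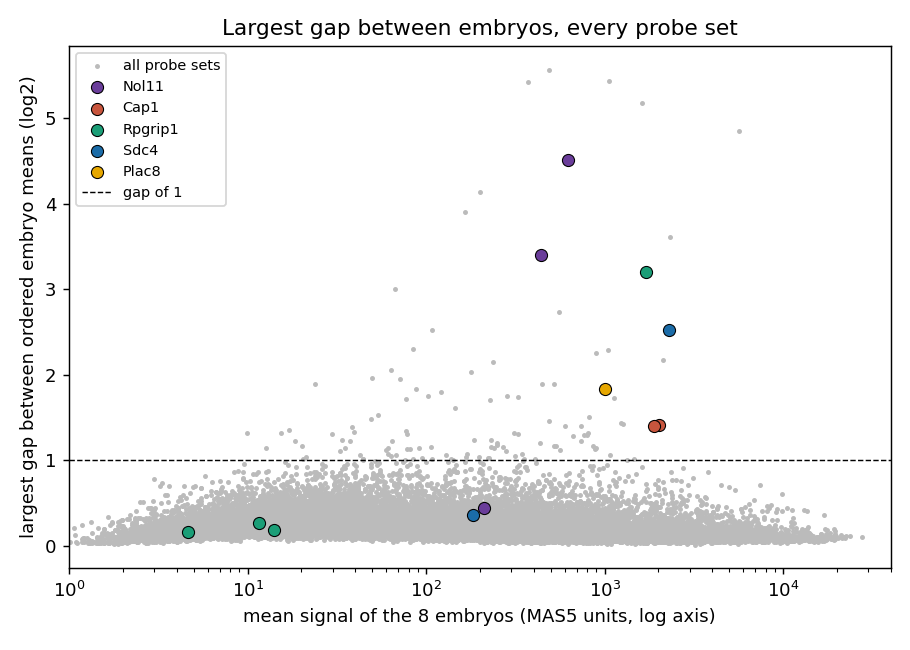
Each point is a probe set, with its mean signal over the 8 embryos on a log axis and the largest gap between ordered embryo means in log2 units. The 12 probe sets of the 5 genes are coloured and the dashed line marks a gap of 1. Of these, 7 lie above the line, from Cap1 at 1.40 to Nol11 at 4.52, and 5 lie among the bulk below 0.5.

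Nol11 had the largest gap of the 5 genes. In probe set 1423479_at the mean signal was 799 and 756 in wild type embryos 1 and 2 and 17.5 in wild type embryo 3. Among the null embryos it was 796, 743, 898 and 946 in embryos 1, 2, 4 and 5 and 15.7 in embryo 3. So 1 embryo of each genotype was near the bottom of the scale while the other 6 lay close together. The gap was 4.52, a 42.5-fold step from wild type embryo 3 to null embryo 2. It was the sixth largest on the array. The 4 cultures of wild type embryo 3 read 14.3, 25.6, 16.1 and 13.9, those of null embryo 3 read 14.1 and 17.3, and no culture of the other embryos was under 712. Every culture thus took the level of its embryo, and the gap was 33.5 times the SD between cultures of an embryo (0.14).

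The other Nol11 probe sets gave different answers. Probe set 1451010_at had the same split, with 31.0 in wild type embryo 3 and 18.3 in null embryo 3 against 479 or more elsewhere. Its gap was 3.40, and its embryo means followed those of 1423479_at at r = 0.997 (8 embryos, a description, since all probe sets share the same RNA). Probe set 1423480_at was not 2-level. It read 254, 186 and 185 in wild type embryos 1 to 3 and 297, 196, 129, 250 and 198 in null embryos 1 to 5, so the same 2 embryos were the lowest. Wild type embryo 3 was only 0.03 (log2) below wild type embryo 2. Its gap was 0.45, its culture ranges overlapped between most neighbouring embryos, and its r with 1423479_at was 0.705. Thus 2 of the 3 probe sets were near the bottom of the scale in wild type embryo 3 and null embryo 3, and the third kept a signal there. Probe sequences and the embryos' own gene sequences were not used here, so whether a base difference under the probes or a difference in transcript gave the low level was not tested.

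**Figure D2:**
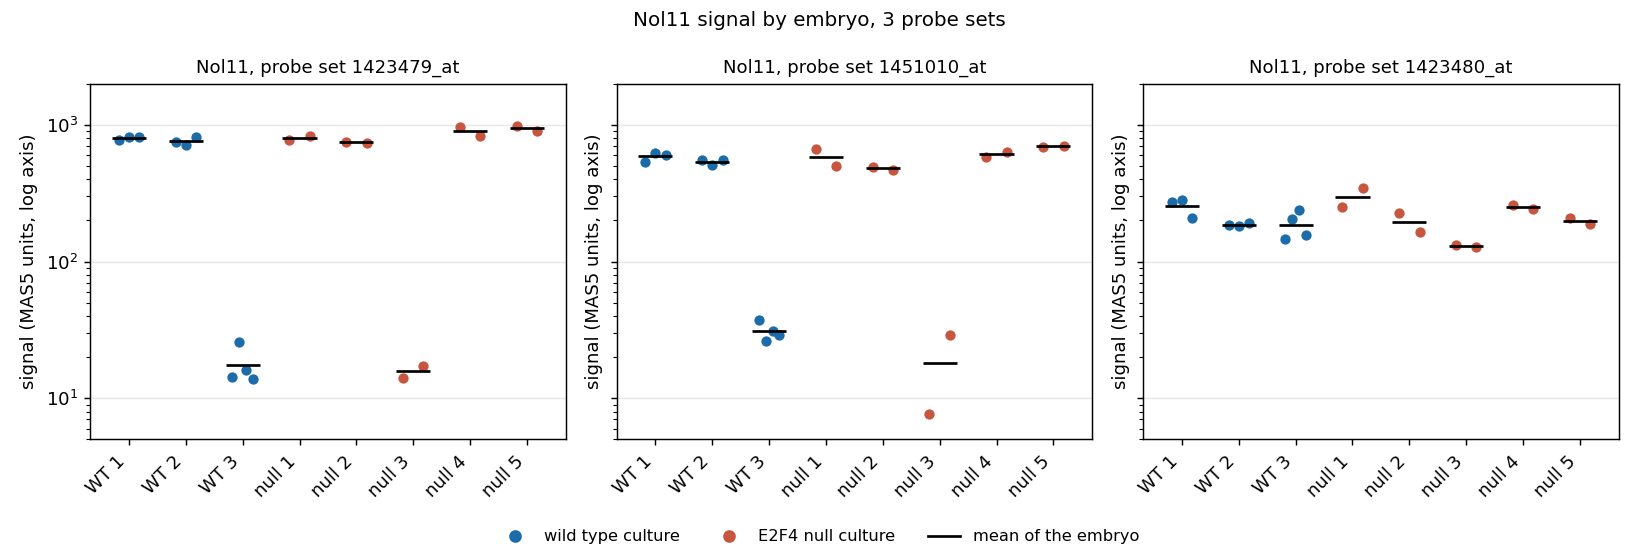
Signal of the 3 Nol11 probe sets in each of the 20 cultures, by embryo, on a log axis; points are cultures and bars the mean of the embryo. Wild type embryo 3 and null embryo 3 fall to between 7.63 and 37.4 in 1423479_at and 1451010_at, and stay between 128 and 237 in 1423480_at.

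Genes that work with Nol11, or lie beside it, showed no such split. Of 35 listed genes of the small subunit processome and pre-rRNA processing, 30 were measured. None was 2-level, and their median gap was 0.12 against 0.20 over all genes. The widest gaps were those of Fbl, the methyltransferase of box C/D particles (0.27, lowest in null embryo 2), and Bms1, a GTPase of the processome (0.26, lowest in wild type embryo 2). The 5 nearest measured genes on each side of Nol11 on chromosome 11 had gaps of 0.12 to 0.26, with r to Nol11 from -0.35 to 0.47, the latter for Pitpnc1. Over the array, no other gene shared the split of wild type embryo 3 and null embryo 3 as a 2-level probe set, and none mirrored it. Among the 101 probe sets with 1 symbol and a gap of at least 1, the most alike were Lce1a1 (r = 0.769), Rbpms (0.644) and Pmepa1 (0.628), and the most opposed Dcx (-0.768), Nsg2 (-0.714) and Gm6958 (-0.691). Dcx and Nsg2, both neuronal genes, were high in null embryo 3 (54.5 and 61.0) but not in wild type embryo 3 (13.3 and 12.7).

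Cap1 was measured by a pair of probe sets that agreed. In 1417461_at the mean signal was 3731, 833 and 2230 in wild type embryos 1 to 3, and 2539, 367, 2156, 2195 and 2162 in null embryos 1 to 5. Wild type embryo 2 and null embryo 2 were low, wild type embryo 1 was the highest, and the other 5 embryos lay close together. The gap was 1.41, and the low side was itself spread by 1.11 between its embryos. In 1417462_at the low embryos were the same (770 and 318), the other 6 ran from 2024 to 3500, and the gap was 1.40. Without wild type embryo 2 the gap was 2.51 in 1417461_at and 2.62 in 1417462_at, with null embryo 2 alone on the low side. The r between the probe sets was 0.999 over 8 embryos. All 3 cultures of wild type embryo 2 (1144, 593 and 761 in 1417461_at) and both of null embryo 2 (403 and 330) were below every culture of the other embryos, whose lowest was 2063. Cap1 was thus lower on both probe sets, and it was not near the bottom of the scale in any embryo. Fewer cells of a type and less RNA per cell cannot be told apart in bulk cultures. Whether a base difference under the probes or a difference in transcript gave the low Cap1 level was not tested.

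Wild type embryo 2 and null embryo 2 also stood apart in other genes. Deptor, an inhibitor of mTOR, shared the Cap1 split as a 2-level probe set, and Sfn, Ctse, Jph2 and Rims2 had its mirror. Sfn (14-3-3 sigma, an epithelial cell cycle regulator) read 250 and 259 in these embryos and 7.0 to 38.9 in the rest (r = -0.961 with Cap1). Ctse (cathepsin E) read 595 and 892 against 103 to 167. Jph2 (junctophilin 2) read 260 in both against 88.9 to 120. In the same direction as Cap1 went G0s2 (r = 0.920), Xylt2 (0.804) and Gm6958 (0.803). Xist, the RNA of the inactive X chromosome, was low in wild type embryo 2 and null embryo 2 (7.2 and 12). It was also low in null embryo 3 (4.9), where Cap1 was on the high side. Eif2s3y, on the Y chromosome and named after its values were seen, was high in the same 3 embryos (350, 557 and 679). The sex-linked split therefore differed from that of Cap1, and from that of each of the other 4 genes.

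No gene of actin monomer turnover was 2-level like Cap1, but most ran against it. Of 33 listed genes, 26 were measured, with a median gap of 0.16. For 21 of the 26 the r with Cap1 was below 0, against 6641 of 12393 genes (median -0.51, against -0.05 over all genes). Cfl1 (cofilin 1) was at -0.90 and Arpc2, a subunit of the Arp2/3 complex, at -0.87. Lists not about actin moved with Cap1 as much. The median r was 0.51 for the processome genes (3 of 30 below 0) and -0.54 for the endothelial markers (7 of 7 below 0). The split of the actin turnover genes was nearer to that of Sdc4. The summed signal of this list was 184829, 173305 and 174454 in wild type embryo 2 and null embryos 1 and 2 and 145684 to 153012 in the other 5. In 12 of the 26 (46.2%, against 8.7% of all genes) these 3 embryos were above all others, Actb and Cfl1 among them. Gsn (gelsolin, which severs filaments) had the widest gap, 0.44. It read 12706, 9698 and 10533 in wild type embryo 2 and null embryos 1 and 2 and 6384 to 7164 in the other 5, the split of Sdc4 and not that of Cap1. Dstn (destrin, a cofilin relative) had a gap of 0.30 with wild type embryo 2 alone on top, at 13628. Next to Cap1 on chromosome 4, Mycl had the widest gap of the 10 neighbours (0.83, r = -0.37) and Col9a2 the highest r (0.535, at a mean signal of 5.81). None of the 10 was 2-level.

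Rpgrip1 was low in 1 embryo only. In 1421144_at the signal was 94.2 in wild type embryo 1, 996 in wild type embryo 2 and 1226 in wild type embryo 3. In null embryos 1 to 5 it was 2272, 2218, 2579, 1592 and 2627. Wild type embryo 1 stood 3.20 below wild type embryo 2, a 10.6-fold step, and its 3 cultures were within 91.9 and 97.3. The next steps, to wild type embryo 3, null embryo 4 and null embryo 2 (0.29, 0.38 and 0.47), also left no overlap between cultures of neighbouring embryos, while null embryos 1, 2, 3 and 5 overlapped. Every null embryo was above every wild type embryo, as in 2.56% of all probe sets. The other 3 probe sets of the gene read 1.42 to 24.7 in all embryos and had gaps of 0.16 to 0.27, with r to 1421144_at of 0.320 to 0.666. At such signals, and with no detection calls, they give no view of whether the split is shared.

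**Figure D3:**
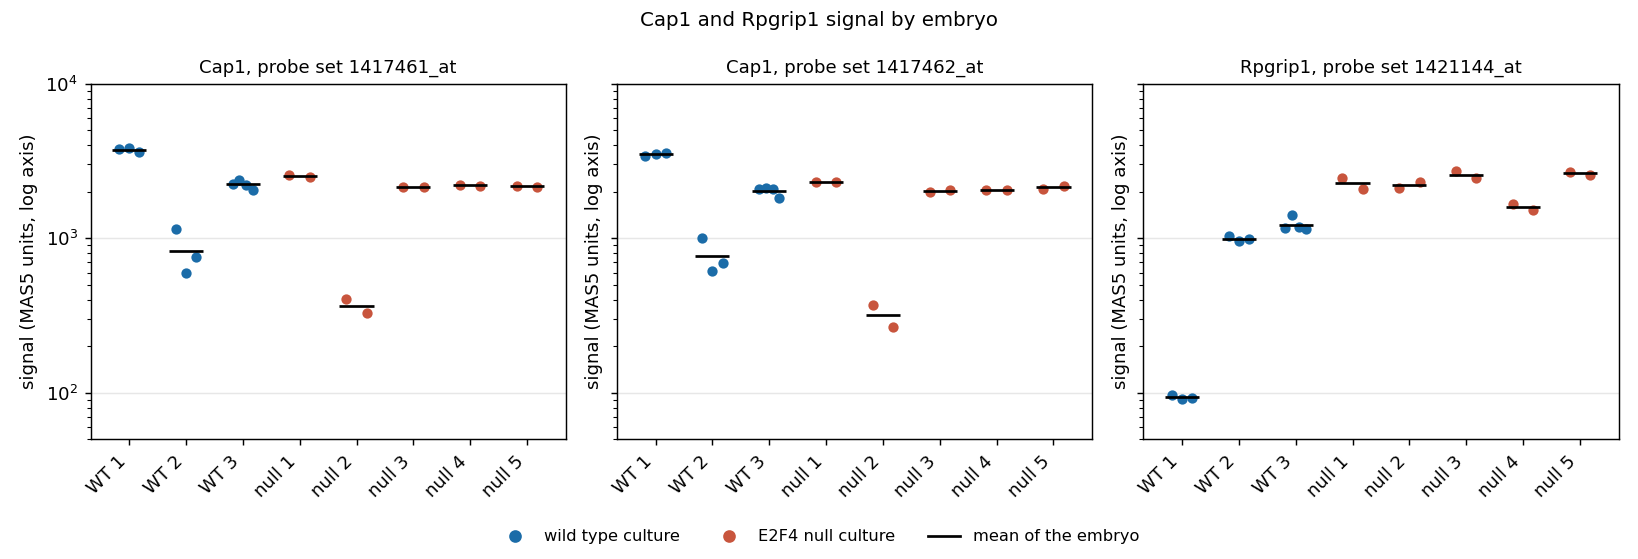
Signal of both Cap1 probe sets and of Rpgrip1 1421144_at in each of the 20 cultures, by embryo, on a log axis; points are cultures and bars the mean of the embryo. Cap1 is low in wild type embryo 2 and null embryo 2 on both probe sets, whereas Rpgrip1 is low in wild type embryo 1 alone (94.2) and its 5 null embryos lie between 1592 and 2627.

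A gene beside Rpgrip1 moved the other way. Supt16, which encodes a subunit of the FACT histone chaperone, lies next to Rpgrip1 on chromosome 14, on the opposite strand, and in the RefSeq gene table their ends overlap. Its probe set 1449578_at read 521, 296 and 336 in wild type embryos 1 to 3 and 84.3, 101, 115, 279 and 112 in null embryos 1 to 5 (r = -0.815 with Rpgrip1). This probe set, not the one with the highest mean, was 2-level (gap 1.15). Probe set 1419741_at read 1910, 918 and 1218 in wild type and 521, 470, 720, 1083 and 661 in null embryos (r = -0.834). Wild type embryo 1, lowest for Rpgrip1, was thus highest for Supt16 on both probe sets. Null embryo 4, the lowest null embryo for Rpgrip1, was the highest null embryo for Supt16. Which transcript each probe set picks up in the overlap was not tested. On the other side of Rpgrip1, Hnrnpc had the highest r of the 10 neighbours (0.715), but its gap was 0.05, and its second probe set, 1418693_at, had an r of -0.688 (gap 0.19).

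Farther along chromosome 14, with 34 measured genes in between, lies Ngdn (neuroguidin, which binds the translation factor eIF4E). Its probe set 1438318_x_at followed Rpgrip1 at r = 0.989, the highest value among the 101 probe sets compared. It read 641 in wild type embryo 1 and 1312 to 1830 in the other 7, a gap of 1.02 below which only that embryo lay. Its second probe set, 1428226_at, read 498, 499 and 577 in wild type and 582 to 710 in null embryos, with a gap of 0.20 and r = 0.720. The other genes most like Rpgrip1 were Igfbp2 (r = 0.813) and Tmem87a (0.665), and the most opposed were Fmod (-0.844) and Cyp7b1 (-0.742). Fmod (fibromodulin, a collagen-binding proteoglycan) read 264 in wild type embryo 1 and 60.2 to 109 elsewhere. Of 27 listed genes of the ciliary transition zone, where Rpgrip1 acts, 14 were measured, none was 2-level, and the median gap was 0.13. The widest were Invs (inversin, 0.30) and Cep290 (0.28). Rpgr, the partner of Rpgrip1, read 41.4 to 64.8, with r = 0.06. Of the 9 measured retina and neural markers, the retinal Rpe65 read 1.7 to 7.0, the neuronal Tubb3 232 to 479 and Map2 40.2 to 167. Crx, a photoreceptor transcription factor, read 21.7 to 27.0 in wild type and 31.8 to 40.9 in null embryos, so that its groups did not overlap, as in 2.56% of all probe sets in this direction, and its r with Rpgrip1 was 0.787. The part of retinal or neural cells in the Rpgrip1 level was not tested.

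Sdc4 and Plac8 split the embryos in the same place, in opposite directions. Sdc4 1448793_a_at read 3153, 508 and 4455 in wild type embryos 1 to 3 and 484, 418, 3087, 2990 and 3370 in null embryos 1 to 5. Wild type embryo 2 and null embryos 1 and 2 were low, with a gap of 2.52 (5.88-fold) to null embryo 4, the lowest of the other 5. No culture of a low embryo was above 559 and no other culture was below 2904. Plac8 1451335_at read 364, 1864 and 254 in wild type embryos 1 to 3 and 1501, 2931, 402, 409 and 334 in null embryos 1 to 5. The 3 embryos low in Sdc4 were the 3 high in Plac8, with a gap of 1.83 (3.67-fold). Their cultures read 1417 to 2999, and those of the other embryos 195 to 434. The r between the genes was -0.986 over 8 embryos, the only pair among the 5 genes beyond -0.784 (Cap1 with Plac8). Within the low side of Sdc4 the 3 embryos overlapped in their cultures, whereas on the high side of Plac8 each embryo lay apart from the next (steps of 0.31 and 0.65).

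**Figure D4:**
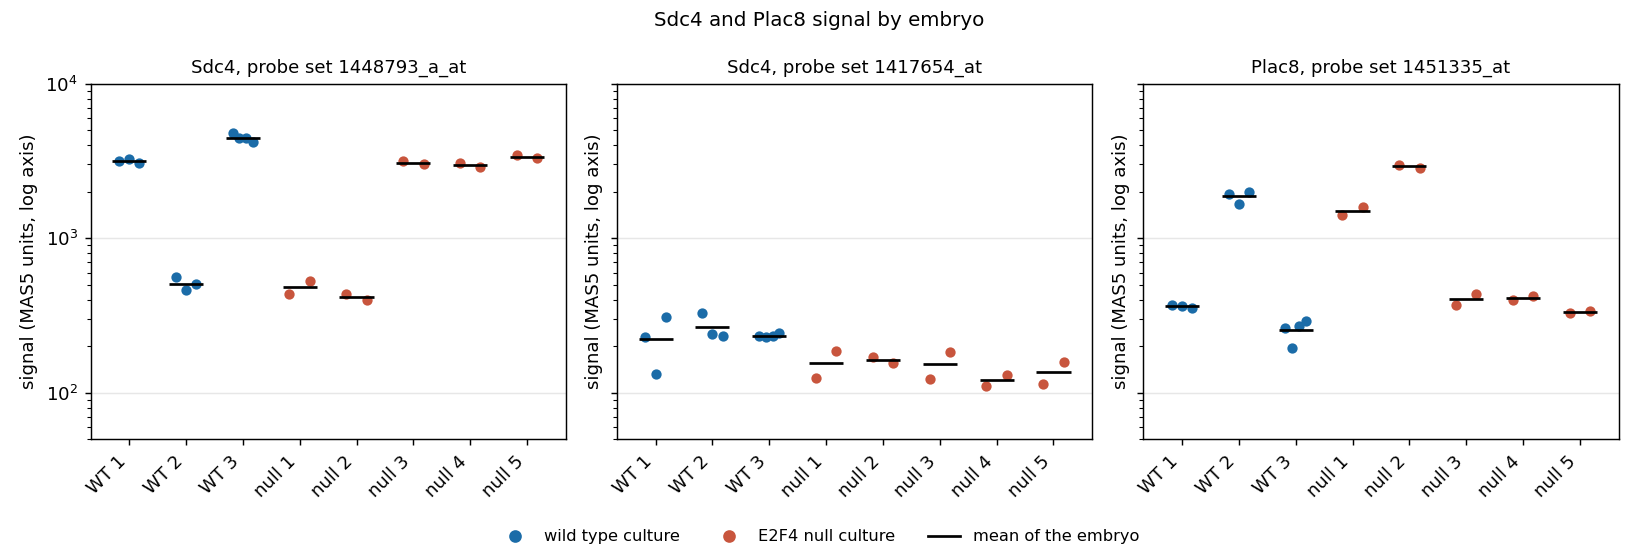
Signal of both Sdc4 probe sets and of Plac8 in each of the 20 cultures, by embryo, on a log axis; points are cultures and bars the mean of the embryo. Wild type embryo 2 and null embryos 1 and 2 are low in Sdc4 1448793_a_at (418 to 508) and high in Plac8 (1501 to 2931), while Sdc4 1417654_at separates the genotypes instead, at 224 to 268 against 121 to 163.

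The bases before the start of both genes are shown because these 2 genes split the same embryos in opposite directions. They are from the RefSeq table of promoters for GRCm38.p6, in which all 5 genes were found. Each is the 250 bases before the annotated start, on the minus strand, 5′ to 3′: chr2:164443189-164443438 for Sdc4 and chr5:100572206-100572455 for Plac8 (its first entry). Capitals mark matches, on either strand, to GGGCGG (Sp1 type), to the CCAAT box, to the TATA type word TATAA, to the E2F words TTTCCCGC, TTTCGCGC, TTTGCCGC and TTTGGCGC, or the NF-kappaB consensus.
Sdc4: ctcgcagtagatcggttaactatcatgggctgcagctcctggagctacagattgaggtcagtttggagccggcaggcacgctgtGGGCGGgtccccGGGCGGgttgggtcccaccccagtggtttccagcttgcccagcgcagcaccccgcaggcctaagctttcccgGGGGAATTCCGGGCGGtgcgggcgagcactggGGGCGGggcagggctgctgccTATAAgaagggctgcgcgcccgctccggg
Plac8: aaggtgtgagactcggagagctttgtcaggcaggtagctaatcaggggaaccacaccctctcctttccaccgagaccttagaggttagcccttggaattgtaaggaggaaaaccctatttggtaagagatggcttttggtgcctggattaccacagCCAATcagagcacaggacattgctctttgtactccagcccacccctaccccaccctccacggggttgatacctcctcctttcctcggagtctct
The Sdc4 stretch held 4 matches to GGGCGG, 1 to TATAA and 1 to the NF-kappaB consensus, which runs directly into the third GGGCGG. It was 68.0% G or C with 19 CG pairs, against medians of 52.4% and 6 over 32851 entries. The Plac8 stretch held a CCAAT and no other match, at 52.8% G or C and 4 CG pairs. Over all entries 32.7% held GGGCGG, 33.8% CCAAT, 22.8% TATAA, 1.9% an E2F word and 3.9% the NF-kappaB consensus. No E2F word was found in these stretches of any of the 5 genes, which says only that these letters are not in this window.

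The second Sdc4 probe set behaved differently. In 1417654_at the embryo means were 224, 268 and 235 in wild type embryos 1 to 3 and 156, 163, 154, 121 and 137 in null embryos 1 to 5. The groups did not overlap, although single cultures did (133 in wild type embryo 1, 187 in null embryo 1). Its gap was 0.35, between the genotypes, and its r with 1448793_a_at was -0.153. Wild type embryo 2, among the lowest on 1448793_a_at, was the highest here. The suffix _a_at is Affymetrix's mark for a probe set that matches several transcripts of a gene. Which transcripts the 2 probe sets read was not tested.

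Several genes shared the Sdc4 and Plac8 split. Of the 2-level probe sets, 8 had the low embryos of Sdc4, and they stood for Aqp1, Cxcl1, Cxcl5, Gas1, Pdgfra and Sdc4 itself. Another 5 had those of Plac8, for Crct1, Glipr1, Myom1, Parm1 and Plac8 itself. Gas1, a membrane protein that restrains growth and modulates hedgehog signalling, had r = 0.980 with Sdc4. It read 324, 498 and 425 in wild type embryo 2 and null embryos 1 and 2 and 2345 to 3647 in the others, and its second probe set was also 2-level (212, 347 and 212 against 819 to 1304). The water channel Aqp1 read 337, 319 and 298 against 1144 to 2394 (r = 0.978), and the neutrophil chemokine Cxcl1 read 97.1, 96.6 and 114 against 270 to 476 (r = 0.972). Myom1, a muscle M-band protein, went with Plac8, at 80.5, 60.8 and 68.4 against 6.5 to 17.1 (r = 0.973 with Plac8). Crct1 (183, 125 and 142 against 33.0 to 48.6) and the fatty acid binding protein Fabp7 (805, 512 and 595 against 65.2 to 199) did so too. Of these 11 genes with either split, 5 lie on chromosome 5 (Pdgfra, Cxcl1, Cxcl5, Parm1 and Plac8), or 45.5%, where 6.2% of all measured genes lie, and the other 6 lie on 6 different chromosomes. Along chromosome 5, Parm1 is separated from Plac8 by 33 measured genes, Cxcl1 by 38, Cxcl5 by 42 and Pdgfra by 96. The genes were picked by their split, so these counts are a description with no test. The 10 neighbours each of Sdc4 and Plac8 held no 2-level gene. Their widest gaps were 0.63 (Svs5) and 0.36 (Hnrnpd), and the highest r was 0.809 for Sys1 beside Sdc4 and 0.721 for Sec31a beside Plac8.

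**Figure D5:**
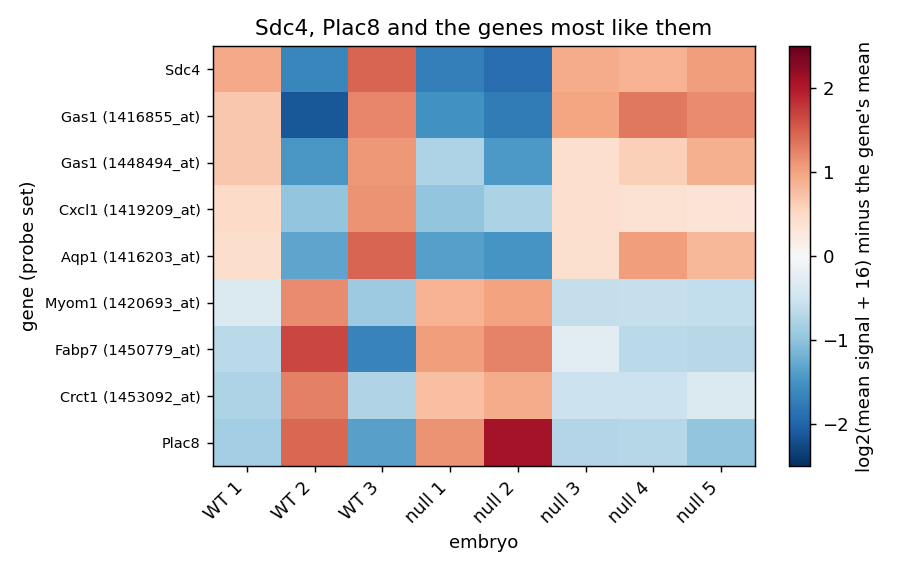
Rows are Sdc4, Plac8 and the probe sets with the highest and lowest r to them, columns the 8 embryos, and colour is log2(mean signal + 16) minus the mean of the row. In wild type embryo 2 and null embryos 1 and 2 the upper rows (Sdc4, Gas1, Cxcl1, Aqp1) are below their means and the lower rows (Myom1, Fabp7, Crct1, Plac8) above.

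Some cell type markers moved with this split. Of the 14 fibroblast markers, Pdgfra (191, 197 and 339 against 852 to 1368), Lum (81.8, 202 and 133 against 597 to 2220), Dcn (99.3, 141 and 91.3 against 223 to 408) and Prrx1 (2719, 2959 and 3058 against 3887 to 5346) had their lowest signals in wild type embryo 2 and null embryos 1 and 2. Col1a1, Col1a2, Fn1 and Vim were instead highest in them. So 4 of the 14 (28.6%) were below all others and 4 (28.6%) above, against 8.0% and 8.7% of all genes. The summed fibroblast signal (115786, 110534 and 115552) was not set apart from that of the others (101239 to 115153). The summed signal of the 8 epithelial markers was 639, 815 and 714 in these embryos against 358 to 554 in the others. Krt18, a keratin of simple epithelia, accounted for 194, 213 and 206 against 60.7 to 110, while Epcam was at 3.2, 2.9 and 4.3. Krt19, another keratin, made up the largest share of the sum (294.5, 451 and 361 against 170 to 311) and was not set apart. The 7 endothelial markers summed to 765, 688 and 693 against 433 to 635. These 3 embryos were above all others in 0 of the 7 (0.0%) and in 1 of the 8 epithelial markers (12.5%), against 8.7% of all genes. The 15 macrophage markers (3872, 2009 and 3225 against 2298 to 6178), the 5 measured trophoblast markers (134, 119 and 97 against 80 to 146) and the 9 neural markers (463, 677 and 560 against 513 to 721) were not set apart. The part of epithelial or endothelial cells in the Sdc4 and Plac8 levels was not tested.

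The lists around both genes held no 2-level gene, but part of the Sdc4 list split the same embryos. For syndecans, glypicans, heparan sulfate synthesis and focal adhesion partners, 31 of 34 listed genes were measured, with a median gap of 0.22. Tgm2 (transglutaminase 2, which crosslinks matrix and binds syndecan 4) had a gap of 1.32 but was too spread to be 2-level: it read 900 and 672 in wild type embryo 2 and null embryo 2, and 87.7 to 260 in the rest. Gpc1 (glypican 1) had the next widest gap (0.42). The summed signal of the list was 81460, 75448 and 75713 in wild type embryo 2 and null embryos 1 and 2 and 60007 to 70077 in the other 5. In 10 of the 31 (32.3%, against 8.7% of all genes) these 3 embryos were above all others, and in 3 (Gpc1, Sdc1 and the growth factor receptor Fgfr1; 9.7%, against 8.0%) below. Among the 10 were the integrins Itgav (r = -0.962 with Sdc4) and Itgb1 (-0.876), Gpc4 (glypican 4, -0.910) and the actin crosslinker Actn4 (-0.884). The other syndecans had gaps of 0.24 (Sdc1), 0.30 (Sdc2) and 0.25 (Sdc3). For the Plac8 family with C/EBP and interferon linked genes, 11 of 20 were measured, with a median gap of 0.28, led by Bst2 (tetherin, 0.51) and Ifit3 (0.47), both interferon-induced. Cebpb, a transcription factor that Plac8 induces in brown fat cells, had a gap of 0.33 and, in these cultures, went against Plac8 (r = -0.909).

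No genotype difference of the 5 genes passed the test across all probe sets. None of the 12 probe sets was called by limma on the embryo means (adjusted p from 0.324 to 0.998), and none of the 22626 was (0%), although 821 were higher and 785 lower in null embryos at an unadjusted p under 0.05 (7.1% of all). Nol11 1423479_at averaged 524 ± 439 over the wild type embryos (SD, n = 3) and 680 ± 380 over the null embryos (n = 5), a difference of 0.69 (log2, SE 1.33) with a limma adjusted p of 0.948. Cap1 1417461_at was 2265 ± 1449 and 1884 ± 863 (-0.26, SE 0.66, adjusted p = 0.964 by limma). Sdc4 1448793_a_at was 2706 ± 2011 and 2070 ± 1484 (-0.41, SE 0.90, adjusted p = 0.955 by limma). Plac8 was 827 ± 900 and 1116 ± 1125 (0.43, SE 0.81, adjusted p = 0.948 by limma). In each of these 4 cases the SE was larger than the difference, and its sign turned when a single embryo was left out. The difference for Nol11 was -0.84 without wild type embryo 3, and that for Cap1 was 0.23 without wild type embryo 1 and 0.26 without null embryo 2. For Sdc4 it was 0.19 without wild type embryo 3 and 0.03 without null embryo 2, and for Plac8 it was -0.13 and -0.06 without the same embryos.

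For 2 of the 12 probe sets the genotype groups did not overlap. Rpgrip1 1421144_at averaged 772 ± 598 over the wild type embryos (SD, n = 3) and 2258 ± 414 over the null embryos (n = 5), a difference of 2.11 (log2, SE 0.66) with a limma adjusted p of 0.535. Without wild type embryo 1 the difference was 1.00 (adjusted p = 0.722 by limma). Sdc4 1417654_at was 242 ± 22.8 and 146 ± 17.2, a difference of -0.66 (SE 0.12) with a limma adjusted p of 0.324. Each had an exact permutation p of 0.0179 (two-sided, 56 splits, not adjusted over the 12 probe sets), the smallest that 3 against 5 embryos can give. Over all probe sets, 591 (2.61%) had every null embryo below every wild type embryo, as Sdc4 1417654_at did, and 579 (2.56%) the reverse, as Rpgrip1 1421144_at did.

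In the 5 gene lists, 112 measured entries gave no call between genotypes by limma on embryo means, and 2 higher and 3 lower at an unadjusted p under 0.05 (4.5%, against 7.1% of all genes). The median difference was 0.05 for the processome genes, -0.04 for actin turnover, 0.06 for the transition zone, -0.03 for syndecan partners and 0.13 for the Plac8 list, against 0.01 over all genes.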

How the data were processed

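Arrays of 20 MEF cultures from 8 embryos were analysed. The authors deposited linear signal intensities, and the submitters' processing notes name MAS5 as the tool that made them. The sources used here give no version, scaling target or detection calls. Of 22690 rows, 64 were controls. Of the others, those with 1 gene symbol in the platform annotation were named, with symbols updated through RefSeq (GRCm38.p6). Intensities were not rescaled, and log2(signal + 16) was averaged over the cultures of each embryo, with 16 close to the 20th percentile of all values (15.7). Differences on this scale understate the change of low signals. The genotype contrast, null minus wild type, was fitted in R 4.3.3 with limma 3.58.1 (two-sided; lmFit, then eBayes with a trend) over all 22626 probe sets, with Benjamini-Hochberg adjustment and calls at 0.05. The fit was tested on simulated data. The small number of embryos limits the precision.

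The 5 genes and all lists were chosen with earlier results of these data known. Named genes were every probe set of the 5 genes, E2f4, the 3 most and 3 least correlated genes of each among probe sets with a gap of at least 1, the neighbours with the widest gap or highest r, the 10 other genes with the widest gaps that had at least 2 embryos and both genotypes on each side, and the 2 widest gaps of each list. Other genes, cell type markers and Eif2s3y included, are named with their values seen. Alternatives covered the pseudocount (4 and 64), normalization, the signal filter, the unit of replication, the gap threshold and each embryo left out.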

Additional observations from a re-analysis of the deposited data

Results flagged for a closer look

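Among the 5 null embryos, 4 of the 12 probe sets of Nol11, Cap1, Rpgrip1, Sdc4 and Plac8 held an embryo far from the others. For each, the gap from the lowest embryo to the next, divided by the range of the 5, was above Dixon's 95% critical value of 0.71. In Nol11 this was null embryo 3, with 0.931 for 1423479_at and 0.883 for 1451010_at. In Cap1 it was null embryo 2, with 0.915 for 1417461_at and 0.932 for 1417462_at. The genes were chosen for such gaps, so these flags add no support. The flags came from Nol11 and Cap1 alone, and the flagged probe sets of each gene moved together (r = 0.997 and 0.999). By chance about 5% of groups pass this value, and the share that passes over all probe sets is not given here. Groups of 3 embryos were not examined.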

How the results depend on the processing

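The 7 probe sets of the 5 genes that were 2-level stayed so under the other pseudocounts, normalizations and filter, with cultures 1 and 2 only, and with each embryo left out, except Rpgrip1 1421144_at without wild type embryo 1 (gap 0.47). Both Cap1 probe sets (gaps of 1.407 and 1.405) and Plac8 (1.833) fell short of a threshold of 2. The number of 2-level probe sets, 94, was 334 with a pseudocount of 4 and 50 with 64, 823 for a gap of at least 0.5 and 22 for at least 2, and 104 to 128 with an embryo left out. Calls between genotypes, 0 in the fit on embryo means, ran from 0 to 5 with an embryo left out (5 when wild type embryo 2 was dropped, 1 when it was embryo 3) and were 7 without wild type embryo 2 and null embryo 2, an alternative chosen after seeing the data. They were 220 over cultures with a random embryo block, 695 with cultures as independent samples and 254 with the culture number as a replicate block; these fits count cultures of an embryo in part or wholly as replicates. Rpgrip1 1421144_at passed in the first (2.07, limma adjusted p = 0.0227) and second of these (1.99, 0.0192), and Sdc4 1417654_at in the second alone (-0.66, 0.00379). With the embryo number as a replicate block there were again 0 calls. The differences were then -0.032 for Nol11 1423479_at, -0.568 for Cap1 1417461_at, -1.155 for Sdc4 1448793_a_at and 1.096 for Plac8. Same-numbered embryos of the genotypes had correlations of their deviations of 0.08, 0.46 and 0.23, and not every embryo was closest to its own number. Of the 2-level splits that set apart 1 embryo of each genotype, most joined the same number, counted over probe sets and not over genes. Embryos 1 were low together in 5 probe sets and embryos 3 in 2, both of Nol11. Embryos 2 were low together in 3 (both Cap1 probe sets and that of Deptor) and high together in 5. Nol11 and Cap1 were picked for their splits, so their probe sets add no support here. Unlike numbers were joined in 1 probe set each (wild type 1 with null 2, wild type 2 with null 5). The numbers were not taken to pair embryos in the main fit, and whether they mark a shared litter or batch was not tested. No result changed direction while past the threshold, but the genotype differences of Nol11, Cap1, Sdc4 1448793_a_at and Plac8, none of which passed it, turned sign with 1 embryo left out. Low signals have no detection calls, which limits the 3 dim Rpgrip1 probe sets most.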

Other observations

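Beyond the splits of the 5 genes, other genes separated the embryos elsewhere. Psmd6, a subunit of the proteasome lid, read 194 in wild type embryo 1 and 169 in null embryo 1, and 2515 to 3672 in the other 6 (probe set 1423696_a_at, gap 3.61). Its other probe set, 1423697_at, read 3814 to 4081 in all 8 embryos (gap 0.04). Khdrbs1 (the RNA-binding protein Sam68, gap 2.29), Tmem87a (2.14), Adamts4 and Exosc9 were also low in wild type embryo 1 and null embryo 1. The most frequent pattern among the 94 probe sets was low signal in wild type embryo 3 and null embryos 3, 4 and 5, in 9 probe sets, and it included Ifi202b, an interferon-induced gene (gap 2.53), Cd200, Mgll, Pmaip1 and Pmepa1. Kitl, Amacr, Sostdc1 and Sub1 were low in wild type embryos 1 and 2 and null embryos 1 and 2, in 5 probe sets. Another 7 of the 94 had the split of the Y-linked genes Eif2s3y, Kdm5d and Uty, low in the 5 embryos with high Xist.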
